A study of Mus musculus with 12 samples.

Results

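The 3 TGF-beta ligand genes, the 3 TGF-beta receptor genes and the 4 genes of the latent TGF-beta binding proteins were described in mouse limb mesenchyme that did or did not express a Creb5 transgene. The 10 genes were chosen by symbol (*Tgfb1*, *Tgfb2*, *Tgfb3*, *Tgfbr1*, *Tgfbr2*, *Tgfbr3*, *Ltbp1*, *Ltbp2*, *Ltbp3* and *Ltbp4*) from the 54532 genes of the table. All 10 were among the 16733 genes tested, those that reached 10 normalised reads in 6 or more of the 12 libraries. Of the 10, *Tgfb2* was higher in the cells with the Creb5 transgene, and the other 9 did not pass the test.

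Embryos came from crosses of Prrx1-Cre males with females carrying a Rosa26 LSL-bovine-Creb5-ires-GFP allele and a Rosa26 LSL-tdTomato allele, so each group carried Cre together with 1 of these alleles. The iCreb5 group (6 libraries) expressed bovine iCreb5HA-GFP and the tdTomato group (6 libraries) expressed itdTomato, both at embryonic stage E14.5, in cells isolated from the limb bud mesenchyme by fluorescence-activated sorting. The groups thus differed in the fluorescent reporter as well as in Creb5. Effects of Creb5 and of the reporter or its sorting cannot be told apart. The Prrx1-Cre driver acts in limb mesenchyme, which gives rise to cartilage, bone, tendon and connective tissue, so each library held a mixture of these lineages. Bulk polyA RNA was sequenced. In such samples fewer cells of a type and less RNA per cell cannot be told apart. The labels place 3 libraries of each group in the 3rd litter and 1 of each in the 4th, 5th and 6th litters, 4 litters in all, while the design text speaks of 6. The batch labels change with the litter, which means that effects of litter and of batch cannot be told apart. The labels do not say whether a library comes from 1 embryo or several, and the p-values rest on the spread among these 12 libraries, of which those of the 3rd litter share a litter. Libraries held between 9.02 and 53.3 M reads (M for 1000000), and no difference in depth between the groups was detected by an exact two-sided permutation test (p = 0.511, with 0.00216 the smallest p possible).

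TGF-beta is made as a precursor whose propeptide stays attached to the mature dimer and keeps it latent. The latent binding proteins LTBP1, LTBP3 and LTBP4 link this complex to the extracellular matrix, and integrins and proteases release the active ligand. Released ligand is bound by the type II receptor, which phosphorylates the type I receptor, and the signal passes to Smad2, Smad3 and Smad4. In the limb, TGF-beta signalling is known for its part in the formation of joints, tendons and cartilage.

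The promoters are shown because Creb5 belongs to a family of transcription factors that bind the cAMP response element (CRE) and related AP-1 sites. RefSeq entries (build GRCm38.p6) were matched for 8 of the 10 genes, with 12 start sites. The following patterns were searched on both strands from 250 bases before to 50 bases after each start: the full CRE TGACGTCA, its shorter core TGACG (which the full CRE contains on each strand) and the AP-1 site TGANTCA. The 120 bases before the start of *Tgfb2*, the member that was higher, and of the first start of *Ltbp1*, the member with a full CRE, read 5′ to 3′ on the gene's strand, with the match in capitals:
Tgfb2: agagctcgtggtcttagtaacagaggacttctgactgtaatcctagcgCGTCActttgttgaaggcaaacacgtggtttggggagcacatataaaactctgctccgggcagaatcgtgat
Ltbp1: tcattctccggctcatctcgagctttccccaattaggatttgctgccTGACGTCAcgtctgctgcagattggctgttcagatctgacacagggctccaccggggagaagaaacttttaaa
The *Tgfb2* stretch is chr1:186705990-186706109 on the minus strand. Its capitals mark the reverse complement of TGACG, at positions -72 to -68 from the start. The *Ltbp1* stretch is chr17:75005409-75005528 on the plus strand, and its capitals mark the full CRE at positions -73 to -66. *Ltbp3* had an AP-1 match starting at position -6. No other entry of the 12 held any of the 3 patterns. Of all 32851 promoters of this length, 1.79% held the full CRE, 20.8% its core and 7.81% the AP-1 site, and a match is a description of letters, not of binding.

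Across all genes tested, limma called 648 higher (3.87%) and 477 lower (2.85%) in iCreb5, 6.72% in either direction, at a Benjamini-Hochberg adjusted p under 0.05. With litter as a replicate block the counts were 859 and 728, and with libraries rescaled to equal totals 799 and 382. That rescaling moved the median log2 change over all genes tested from 0.004 to 0.070. *Creb5* itself, a mouse gene to which reads of the bovine transgene may or may not have been assigned, read from 2555 to 3162 in the iCreb5 libraries and from 1470 to 2217 in the tdTomato libraries, without overlap (log2 change 0.65 ± 0.12 SE, adjusted p = 0.00219). *Prrx1*, the gene whose enhancer drives the Cre, read 4158 ± 575 in iCreb5 and 4986 ± 943 in tdTomato (SD, n = 6 each; limma adjusted p = 0.352), and the sum of 7 limb mesenchyme markers ran from 25258 to 29726 and from 20367 to 28262. Of these 7, only *Meox2* was called (8188 ± 898 in iCreb5 and 3636 ± 494 in tdTomato). The log2 change was negative for 4 of the 7 and positive for 3, with a median of -0.12. The groups also differed in markers of other cell types. The sum of 10 leukocyte and macrophage markers ran from 1882 to 8224 in iCreb5 and from 488 to 857 in tdTomato, with all 10 called higher. The sum of 10 cartilage markers ran from 75220 to 107707 in iCreb5 and from 148086 to 341071 in tdTomato, with 9 of 10 called lower.

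*Tgfb2*, the ligand gene at chr1:186622792-186705989 (minus strand, mm10), was higher in every iCreb5 library than in any tdTomato library. Its normalised read counts in iCreb5 were 7006, 6370 and 6567 in the litter 3 libraries 3a, 3b and 3c, and 5994, 5154 and 6286 in 4a, 5 and 6. In tdTomato they were 4861, 3499 and 3933 in 3a, 3b and 3c, and 3445, 3335 and 3430 in 4a, 5b and 6d. The lowest iCreb5 library, 5, stood above the highest tdTomato library, 3a, and no libraries overlapped. An antisense gene across *Tgfb2*, *Gm29491*, had a mean of 2.65. Of all genes tested, 2.83% had every iCreb5 library above every tdTomato library. The group means were 6230 ± 625 and 3750 ± 583 (SD, n = 6 each), a 1.67-fold difference (95% interval 1.42 to 1.97) on the scale of value + 1. The log2 change was 0.74 ± 0.11 (SE; limma adjusted p = 0.00055).

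**Figure D1:**
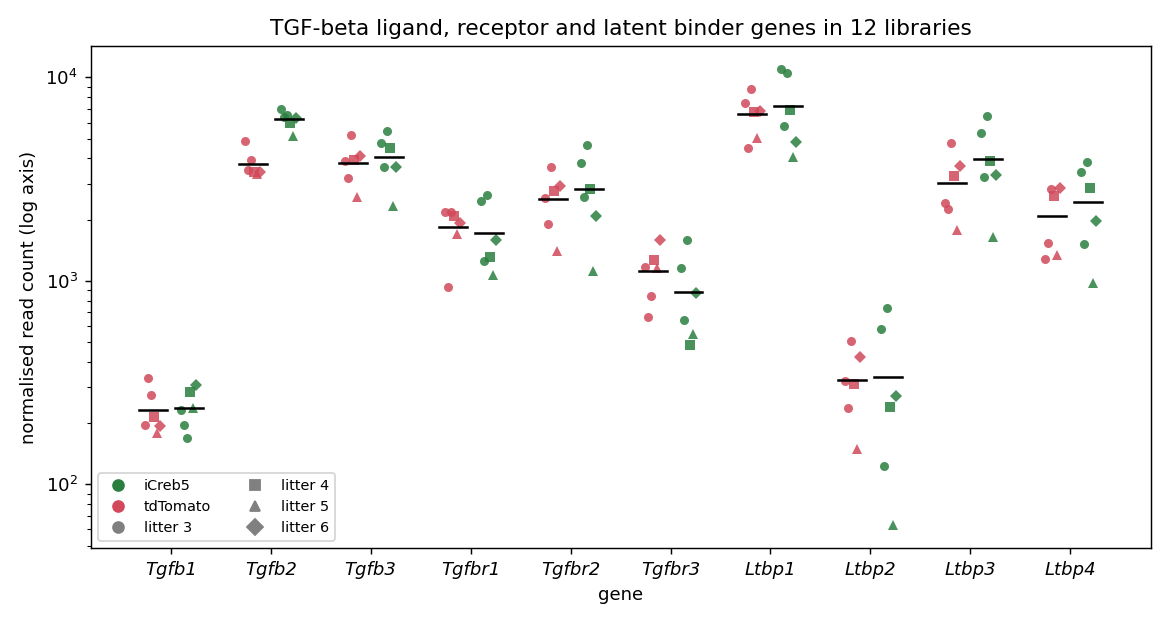
Normalised read count (log axis) of each of the 10 genes in the 6 tdTomato and 6 iCreb5 libraries. Each symbol is a library, its shape gives the litter, and the black line is the group mean. *Tgfb2* alone shows no overlap between the groups, with means of 3750 and 6230.

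The difference in *Tgfb2* was of similar size in each litter. The ratio of iCreb5 to tdTomato was 1.62 between the means of the 3 libraries per group of litter 3, 1.74 in litter 4, 1.55 in litter 5 and 1.83 in litter 6. Within litter 3 alone, where limma called 4.11% of all genes, the log2 change was 0.71 ± 0.14 (SE, limma adjusted p = 0.0256). Within litters 4 to 6, where it also called 4.11%, the change was 0.77 ± 0.12 (limma adjusted p = 0.00749). The difference between these 2 changes was -0.06 ± 0.19, with a limma adjusted p of 0.948 for the interaction. *Tgfb2* was called higher in all 26 alternative analyses, with log2 changes between 0.70 and 0.82.

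The marker sums moved with the groups in the same libraries as *Tgfb2*. In iCreb5 the leukocyte sum was 4600 in 3a, 2419 in 3b, 3684 in 3c, 1882 in 4a, 5034 in 5 and 8224 in 6. Library 5 had the lowest *Tgfb2* value of its group, and library 6, with the highest leukocyte sum, had a *Tgfb2* value of 6286. Without these 2 libraries the log2 change of *Tgfb2* was 0.80. The iCreb5 libraries left, with leukocyte sums from 1882 to 4600, still stood above every tdTomato library (488 to 857). The sum of 8 endothelial markers ran from 1897 to 4298 in iCreb5 and from 1374 to 1916 in tdTomato. Library 5 was the lowest iCreb5 library in this sum. It was also the lowest in the cartilage (75220) and tendon (40098) sums and for 8 of the 10 members, so its low endothelial sum was not particular. The part of these cell types in the difference of *Tgfb2* was not tested.

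**Figure D2:**
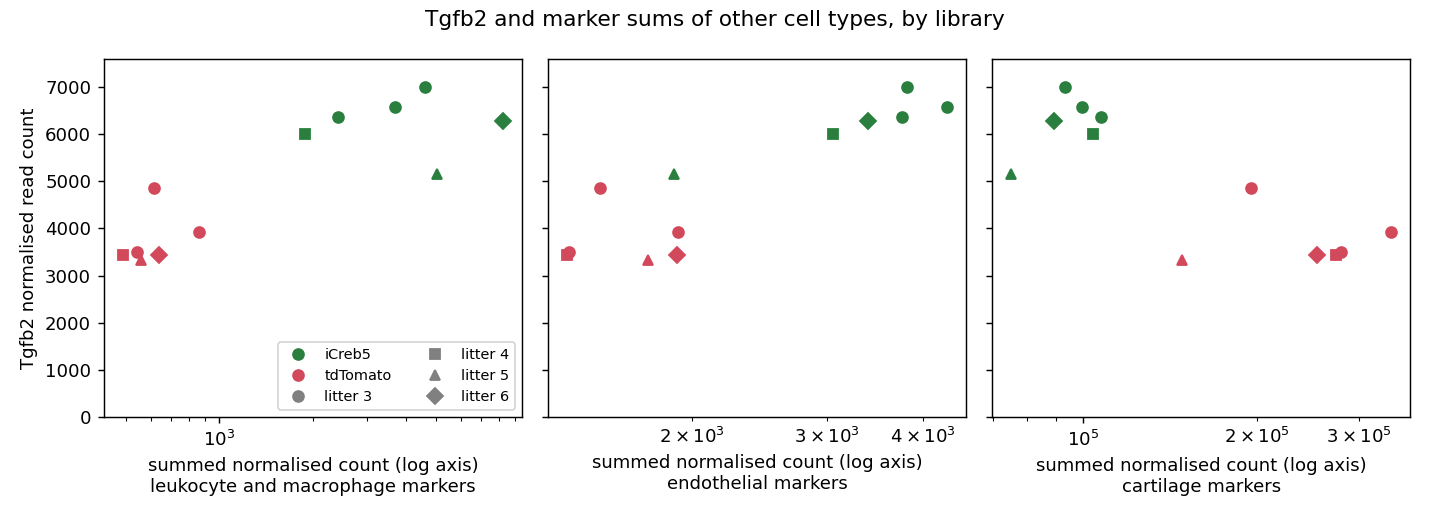
Normalised read count of *Tgfb2* (linear axis from 0) against the summed normalised counts of leukocyte, endothelial and cartilage markers (log axes) in the 12 libraries, coloured by group and shaped by litter. The groups are apart in *Tgfb2* and in the leukocyte and cartilage sums, and overlap slightly in the endothelial sum (1897 in iCreb5 library 5 against 1916 in tdTomato library 3c).

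*Tgfb3*, the other abundant ligand gene (chr12:86056745-86079041, minus strand), did not pass the test. Its counts in iCreb5 were 4783, 3635 and 5467 in litter 3 and 4516, 2340 and 3627 in litters 4, 5 and 6. In tdTomato they were 3884, 3194 and 5193, then 3917, 2585 and 4110. Litter 5 held the lowest and library 3c the highest value in both groups, and the groups overlapped almost wholly. The log2 change was 0.07 ± 0.19 (SE, limma adjusted p = 0.896; 95% interval -0.34 to 0.49). *Tgfb3* overlaps *Ttll5*, a gene on the opposite strand with a mean of 392, and the sources used here do not state whether counting used strand.

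*Tgfb1* (chr7:25687002-25705077, plus strand), the ligand gene best known from blood and immune cells, had the fewest reads of the ligands. It read 232, 196 and 168 in the iCreb5 libraries of litter 3 and 284, 238 and 308 in those of litters 4, 5 and 6. The tdTomato libraries read 195, 334 and 275, then 214, 178 and 192. In litter 3 the iCreb5 mean lay below the tdTomato mean (ratio 0.741), and in litters 4, 5 and 6 iCreb5 lay above (ratios 1.33, 1.33 and 1.60). The log2 change was 0.05 ± 0.20 over all libraries (SE, limma adjusted p = 0.940), -0.41 within litter 3 and 0.50 within litters 4 to 6. The interaction had an unadjusted limma p of 0.0178 and an adjusted p of 0.513. The groups overlapped, and the part of leukocytes in these values was not tested.

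The make-up of the ligand pool was compared per length, since a longer transcript yields more reads. Per kilobase of exon, *Tgfb3* and *Tgfb2* were the most abundant ligand genes. The *Tgfb3* level was 1200 ± 325 in iCreb5 and 1127 ± 261 in tdTomato, and the *Tgfb2* level 1076 ± 108 and 648 ± 101 (SD, n = 6 each). *Tgfb1* stood far below both, at 33.3 to 61.2 in iCreb5 and 35.3 to 66.2 in tdTomato. *Tgfb2* made up 47.0% ± 5.10 of the summed ligand level per kilobase in iCreb5 (range 40.7% to 54.6%) and 36.0% ± 5.02 in tdTomato (29.9% to 41.9%). The 2 ranges met only between iCreb5 library 3c and tdTomato libraries 3a and 5b. The ratio of the *Tgfb2* count to the *Tgfb3* count was 1.61 ± 0.362 in iCreb5 and 1.02 ± 0.226 in tdTomato, and it was highest in litter 5 in both groups (2.20 and 1.29).

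None of the 3 receptor genes passed the test over all libraries. *Tgfbr1* (chr4:47353222-47414931, plus strand) encodes the type I receptor kinase. It read 2475, 1259 and 2629 in the iCreb5 libraries of litter 3 and 1312, 1066 and 1592 in litters 4, 5 and 6, against 2186, 932 and 2184, then 2096, 1692 and 1923 in tdTomato. The groups overlapped, with a log2 change of -0.12 ± 0.25 (SE, limma adjusted p = 0.857). The change was 0.29 within litter 3 and -0.54 within litters 4 to 6, where iCreb5 was the lower library in each of the 3 pairs (limma adjusted p = 0.0680).

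*Tgfbr2* (chr9:116084293-116175360, minus strand) encodes the type II receptor, which binds the ligand first. Its counts in iCreb5 were 3785, 2578 and 4655 in litter 3 and 2822, 1120 and 2077 in litters 4, 5 and 6. The tdTomato counts were 2549, 1901 and 3633, then 2754, 1407 and 2930. Litter 5 was lowest in both groups, and the iCreb5 range enclosed the tdTomato range. The log2 change was 0.10 ± 0.29 (SE, limma adjusted p = 0.914).

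*Tgfbr3* (chr5:107106570-107289629, minus strand) encodes betaglycan, the co-receptor that presents ligand, TGF-beta2 above all, to the type II receptor. The iCreb5 libraries read 1152, 640 and 1587 in litter 3 and 486, 546 and 876 in litters 4, 5 and 6. The tdTomato libraries read 1167, 667 and 840, then 1262, 1153 and 1586. Litter 3 and the later litters differed in direction: the ratio of iCreb5 to tdTomato was 1.26 in litter 3 and 0.385, 0.474 and 0.552 in litters 4, 5 and 6. Over all libraries the log2 change was -0.41 ± 0.27 (SE, limma adjusted p = 0.482). Within litters 4 to 6 it was -1.10 ± 0.16 (limma adjusted p = 0.00582), which made *Tgfbr3* the only member besides *Tgfb2* called there, and within litter 3 it was 0.28 ± 0.32 (adjusted p = 0.681). The difference between the 2 changes was 1.38 ± 0.41, with an unadjusted p of 0.00541 and a limma adjusted p of 0.501. That interaction, fitted with limma, called 0 of the 16733 genes, so a different response of *Tgfbr3* in litter 3 was not established. An unadjusted p under 0.05 was found for 1500 genes, more than the share of 0.05 that chance gives on average.

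**Figure D3:**
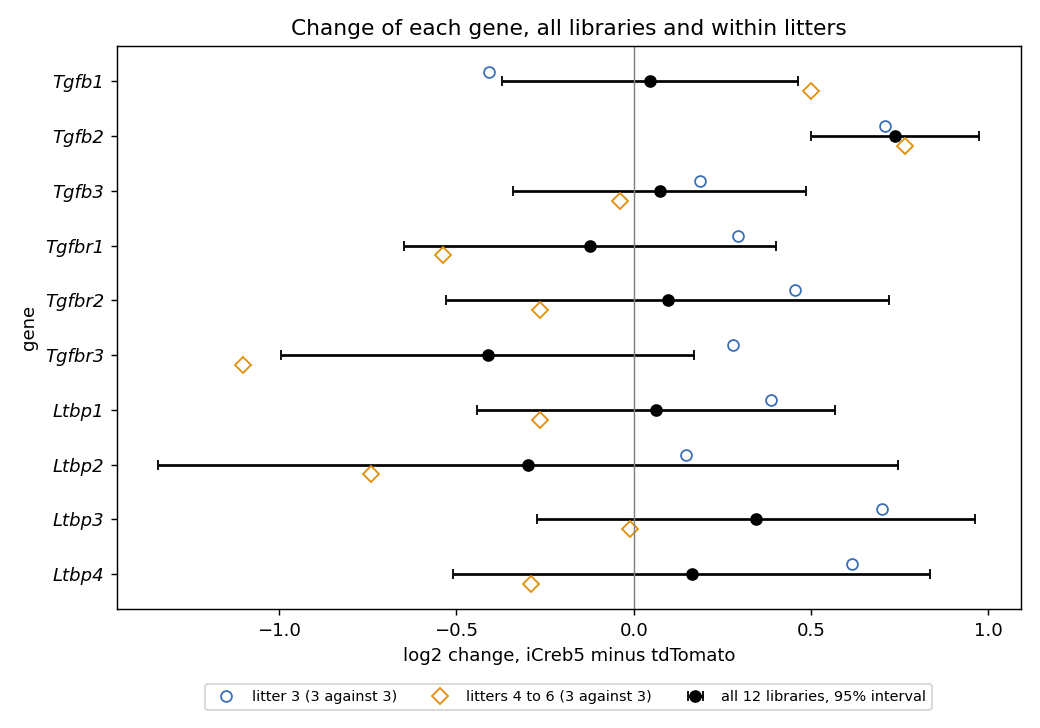
Log2 change (iCreb5 minus tdTomato) of the 10 genes over all 12 libraries with its 95% interval, and within litter 3 and litters 4 to 6 without intervals. The 3 estimates for *Tgfb2* lie between 0.71 and 0.77, while those for *Tgfbr3* run from -1.10 to 0.28.

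The latent binding protein genes spread widely between libraries and none passed the test. *Ltbp1* (chr17:75005568-75392512, plus strand), whose product tethers latent TGF-beta to the matrix, read 11033, 5771 and 10571 in the iCreb5 libraries of litter 3 and 6949, 4047 and 4831 in litters 4, 5 and 6. In tdTomato it read 7527, 4518 and 8823, then 6798, 5051 and 6835. Libraries 3a and 3c were the highest of each group, and the log2 change was 0.06 ± 0.24 (SE, limma adjusted p = 0.932). *Ltbp3* (chr19:5740904-5758532, plus strand), a latent binder known for its role in the skeleton, read 5313, 3234 and 6482, then 3862, 1639 and 3323 in iCreb5, and 2426, 2258 and 4736, then 3293, 1782 and 3668 in tdTomato. Its log2 change was 0.34 ± 0.29 (SE, limma adjusted p = 0.605), with 0.70 within litter 3 and -0.01 within litters 4 to 6.

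*Ltbp4* (chr7:27305136-27337692, minus strand), also known for its role in elastic fibre assembly, read 3429, 1518 and 3836, then 2866, 971 and 1975 in iCreb5. In tdTomato it read 1282, 1528 and 2824, then 2604, 1346 and 2858, so the groups overlapped. The log2 change was 0.16 ± 0.32 (SE, limma adjusted p = 0.848). *Ltbp2* (chr12:84783212-84876532, minus strand), the family member that does not bind latent TGF-beta, had the lowest counts of the 4 and the widest spread. It read 581, 123 and 735, then 239, 62.8 and 273 in iCreb5, an 11.7-fold span within the group, and 321, 238 and 507, then 310, 149 and 420 in tdTomato. The log2 change was -0.30 ± 0.49 (SE, limma adjusted p = 0.818), with a 95% interval from -1.34 to 0.75.

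Per kilobase of exon, the levels of the 10 genes had the same order of group means in both groups. *Tgfb3* was highest and was followed by *Tgfb2*, *Ltbp1*, *Ltbp3*, *Ltbp4*, *Tgfbr2*, *Tgfbr1*, *Tgfbr3*, *Tgfb1* and *Ltbp2*. In tdTomato the mean level per kilobase was 617 ± 149 for *Ltbp1*, 309 ± 95.9 for *Tgfbr2*, 170 ± 49.5 for *Tgfbr3* and 39.6 ± 15.6 for *Ltbp2*. Neighbours in this order overlapped in their library ranges in both groups, except *Tgfbr3* and *Tgfb1*. When the longest coding transcript of each gene was used as the length, *Tgfb2* came first in iCreb5 (1218 ± 122), and in tdTomato *Ltbp1* (988 ± 238) stood above *Tgfb2* (733 ± 114). The top 3 genes stayed *Tgfb3*, *Tgfb2* and *Ltbp1* with either length.

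The spread between libraries was shared by most members. The SD of the log2 values within groups was 0.18 for *Tgfb2*, 0.34 for *Tgfb1* and between 0.39 and 1.04 for the other 8, whereas the median over 10681 genes with a mean of at least 200 was 0.27 (quartiles 0.20 and 0.37). iCreb5 library 5 held the lowest value of its group for 8 of the 10 genes, and its partner in litter 5, tdTomato 5b, for 6. iCreb5 library 3c held the highest value for 7 genes and tdTomato 3c for 5. tdTomato 3b, the deepest library at 53.3 M reads, was lowest for 3 genes, whereas iCreb5 3c was the next deepest at 49.2 M reads. The intervals of the 9 members that did not pass the test were accordingly wide, the widest being that of *Ltbp2*.

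**Figure D4:**
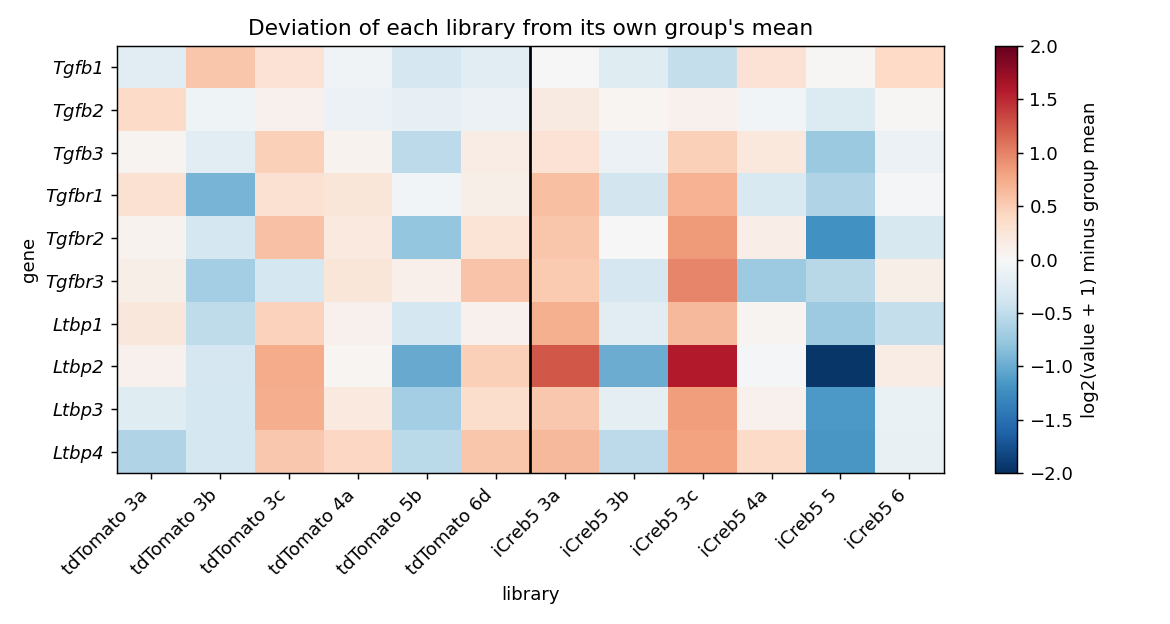
Deviation of each library (columns) from the mean of its own group, on the scale of log2(value + 1), for the 10 genes (rows). The litter 5 libraries (tdTomato 5b and iCreb5 5) are blue for most genes and the 3c libraries red, while the *Tgfb2* row is pale throughout, with an SD of 0.18.

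The genes whose standardised log2 values over the 12 libraries lay nearest to those of *Tgfb2* were *Prg4* and *Lpar1*. *Prg4*, which encodes the joint lubricant lubricin, had a root mean square difference of 0.233, and *Lpar1*, a lysophosphatidic acid receptor gene, of 0.237. The median over the 13466 genes compared was 1.35. *Prg4* read 908 ± 245 in iCreb5 and 85.4 ± 31.2 in tdTomato, and *Lpar1* 11194 ± 1038 and 7538 ± 754 (SD, n = 6 each). The distances of the other members from *Tgfb2* ran from 1.01 (*Ltbp3*) to 1.496 (*Tgfbr3*). These distances describe these libraries only, and both groups' separation enters them.

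The rest of the pathway was read from 4 lists with 61 genes together, 3 of which stand in 2 lists. Of the 60 tested, 3 were called higher and 4 lower, against 3.87% and 2.85% of all genes, and the median log2 change was 0.02. With litter as a replicate block, 4 were called higher and 6 lower. The block added *Postn*, *Fmod* and *Bambi*, which are named here because of that change, after their values were seen. The 10 members themselves had 1 called higher and 0 lower, with a median of 0.07, where the median of all genes was 0.004.

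Of 24 genes tested for the activation and storage of latent TGF-beta, 1 was higher and 3 were lower, against 3.87% and 2.85% of all genes. Their median log2 change was -0.08 (*Itgb6* was below the filter). *Nrros*, whose product tethers latent TGF-beta on myeloid cells, read from 196 to 400 in iCreb5 and from 40.4 to 126 in tdTomato, without overlap. It was 3.65-fold higher (limma adjusted p = 0.000476), with a log2 change of 1.21 within litter 3 and 2.53 within litters 4 to 6. The difference between these changes had a limma adjusted p of 0.501. The leukocyte marker sum was higher in the same libraries. The part of leukocytes in it was not tested. *Mmp9*, a gelatinase that can release latent TGF-beta, read from 94.2 to 249 in iCreb5 and from 561 to 1132 in tdTomato, also without overlap, and the highest library, tdTomato 3c, stood apart from the next at 748. It was 4.25-fold lower in iCreb5 (limma adjusted p = 5.81e-05). The cartilage sums were also lower in iCreb5, as were the sums of 6 osteoblast markers (2884 to 14144 against 7674 to 41721). The leukocyte sums went the other way (1882 to 8224 against 488 to 857). The part of these cells in *Mmp9* was not tested.

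*Lrrc32*, which encodes the cell-surface latent TGF-beta anchor GARP, read from 225 to 564 in iCreb5 and from 374 to 932 in tdTomato. It was 1.92-fold lower in iCreb5 (limma adjusted p = 0.0254), a call lost in 8 of the 26 alternatives. Among these were litter 3 alone (limma adjusted p = 0.0921) and leaving out iCreb5 3b or 6, or tdTomato 3a, 3b, 4a or 6d (limma adjusted p from 0.0527 to 0.0662). *Bgn*, which encodes biglycan, a proteoglycan that binds TGF-beta, read 4861 ± 851 in iCreb5 and 6616 ± 669 in tdTomato, 1.37-fold lower (limma adjusted p = 0.0353). That call was lost in 15 of the 26 alternatives, among them equal library totals and leaving out any library except iCreb5 3c, iCreb5 5 and tdTomato 5b. The most abundant genes of the list that did not pass were *Dcn*, another such proteoglycan (40832 ± 6414 and 40336 ± 9197), and *Itgb1*, an integrin chain (16745 ± 3702 and 16230 ± 2549). *Fmod*, which encodes the related proteoglycan fibromodulin, read 4973 ± 1418 in iCreb5 and 7782 ± 2282 in tdTomato, a log2 change of -0.66 (limma adjusted p = 0.126). It was called lower in 4 of the 26 alternatives. Among these were the replicate block (limma adjusted p = 0.00333), litters 4 to 6 (log2 change -0.71, limma adjusted p = 0.0145) and leaving out tdTomato 5b (limma adjusted p = 0.0328).

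Of 10 co-receptors and receptor partners, 2 were higher and 0 lower, against 3.87% and 2.85% of all genes. Their median log2 change was -0.09. *Cav1*, which encodes caveolin-1, a protein of the membrane compartment through which TGF-beta receptors can be internalised, read 2334 ± 590 in iCreb5 and 1455 ± 204 in tdTomato. It was 1.57-fold higher (limma adjusted p = 0.0215), a call lost in 6 of the 26 alternatives. Among these were litters 4 to 6 (limma adjusted p = 0.124) and leaving out iCreb5 3b, tdTomato 3c or tdTomato 4a (limma adjusted p from 0.0526 to 0.0581). *Cav1* is also abundant in endothelial cells, whose marker sum was higher in iCreb5, and their part in it was not tested. *Ldlrad4*, whose product limits Smad phosphorylation by the receptor, read 852 ± 127 and 562 ± 96.8, 1.52-fold higher (limma adjusted p = 0.0132). Its log2 change was 0.36 within litter 3, where it was not called (limma adjusted p = 0.349), and 0.85 within litters 4 to 6 (limma adjusted p = 0.0162). The call of *Ldlrad4* was lost in 3 of the 26 alternatives, litter 3 alone among them. *Fkbp1a*, which encodes a protein that binds the type I receptor (11855 ± 1360 and 13155 ± 1159), and *Strap* (6621 ± 898 and 6526 ± 434) did not pass. *Bambi*, which encodes a decoy receptor, read 2146 ± 722 in iCreb5 and 3021 ± 1024 in tdTomato, where library 5b stood apart at 5013. It had a log2 change of -0.50 (limma adjusted p = 0.236), and was called lower in 2 of the 26 alternatives, the replicate block among them (limma adjusted p = 0.0296).

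None of the 14 Smad genes and their regulators was called, where 6.72% of all genes tested were. The median log2 change was 0.10, with single changes from -0.20 to 0.45. *Smad4*, the Smad shared with BMP signalling, read 4645 ± 519 in iCreb5 and 4422 ± 439 in tdTomato (limma adjusted p = 0.796). *Ppm1a*, which encodes a phosphatase of Smad2 and Smad3, read 2727 ± 287 and 2431 ± 227 (limma adjusted p = 0.438). Of 15 genes commonly used as TGF-beta targets, 0 were higher and 1 was lower, against 3.87% and 2.85% of all genes. Their median log2 change was 0.06. *Timp1*, which encodes a metalloproteinase inhibitor, read from 381 to 676 in iCreb5 and from 718 to 1100 in tdTomato, 1.80-fold lower without overlap (limma adjusted p = 0.00228). *Col3a1* and *Col1a1*, the most abundant of the list, did not pass (limma adjusted p = 0.739 and 0.998). *Postn*, which encodes the matrix protein periostin, read 60153 ± 16160 in iCreb5 and 41312 ± 8408 in tdTomato, a log2 change of 0.52 (limma adjusted p = 0.141). It was called higher with litter as a replicate block (limma adjusted p = 0.0251), within litter 3 alone (log2 change 0.81, adjusted p = 0.0194) and without iCreb5 5 (0.68, adjusted p = 0.0113).

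**Figure D5:**
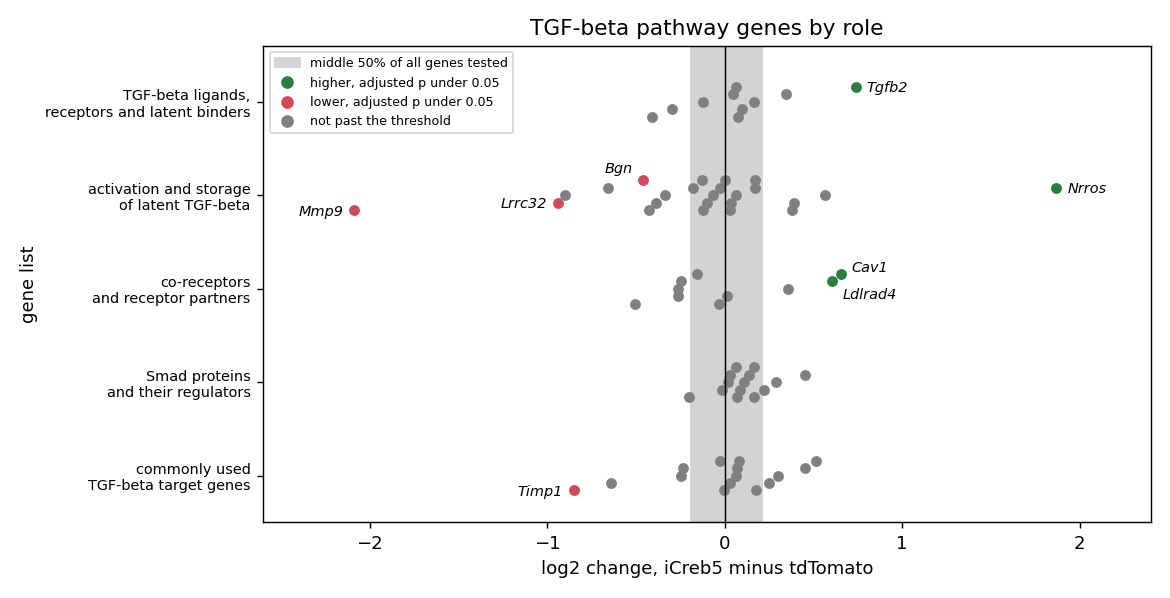
Log2 change (iCreb5 minus tdTomato) of the members and of the 4 other TGF-beta pathway lists. Each point is a gene, coloured by its limma call, and the grey band holds the middle 50% of all genes tested (-0.19 to 0.21). *Tgfb2* is the 1 member called, and the 14 Smad genes include no call, where 6.72% of all genes tested were called.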

How the data were processed

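The 12 E14.5 RNA-seq libraries (6 iCreb5, 6 tdTomato) were compared. Values are normalised signal, deposited by the authors per gene and library. Each library's values are whole multiples of 1 unit (100% within 1e-06), so they are read counts scaled by 1 factor per library. The submitters' processing notes name FastQC, STAR, Salmon, DESeq2 and the build mm10 and give no versions or roles. Whether counting used strand, and where bovine transgene reads went, is not stated in the sources used here. A P0 table whose 8 columns match no labelled sample was not used. The value of 3 reads lay between 1.48 and 8.38 (a limit from counting alone).

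The main test was limma 3.58.1 in R 4.3.3 (two-sided, lmFit and eBayes with a trend) of log2(value + 1), without covariates, over the 16733 of 54532 genes that reached 10 in 6 or more of the 12 libraries, with Benjamini-Hochberg adjustment over all of them and a threshold of 0.05. Folds compare geometric means of value + 1, which understates changes of low genes. Within-litter fits used litter 3 alone and litters 4 to 6 with litter as a block, and an interaction term tested their difference. Whole reads recovered from the table were also tested with edgeR 4.0.16, DESeq2 1.42.0 and limma-voom. The labels mark shared litters, so the litters pair the samples. Deviations of same-litter libraries from their group means correlated at -0.24 to 0.35 (median 0.07, 12 pairs), and those of different litters at -0.26 to 0.22 (median -0.03, 24 pairs). Marker sums, depth and summed values were compared by exact two-sided permutation tests, the p-values of the marker sums adjusted over 11 lists (adjusted p 0.0119 for leukocyte and for cartilage, 0.0159 for Schwann cell, 0.0179 for endothelial, 0.0238 for neuron and 0.0306 for osteoblast and for tendon markers, and 0.0714 for limb mesenchyme, 0.593 for muscle and 0.978 for epidermis and red cell markers). Gene by gene, limma called only *Sox10* (lower) of 7 Schwann cell and melanoblast markers tested. It called only *Stmn2* (lower) of 5 neuron markers and only *Thbs4* (higher) of 6 tendon markers. All 5 osteoblast markers tested were called lower, and 5 of 8 endothelial markers higher.

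The members and lists were chosen with earlier results of these data known. All members are named; of each pathway list, the genes past the threshold (at most 6) and the 2 most abundant others are named, and for a member past the threshold the 2 nearest genes. Pathway genes called with the replicate block but not in the main test were added after their values were seen. Gene coordinates are from GENCODE M21 (mm10) and promoters from RefSeq (GRCm38.p6). The limma script was tested on simulated data.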

Additional observations from a re-analysis of the deposited data

Results flagged for a closer look

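*Mmp9* read 1132 in tdTomato library 3c, the highest of its group, with the next highest at 748. The gap was 0.672 of the group's range, above the 0.625 that Dixon's rule sets for 6 samples. *Bambi* read 5013 in tdTomato library 5b, with the next highest at 3008 and a gap of 0.728 of the range. These were the only such values in 60 groups of 6 libraries (30 genes), and chance flags about 1 in 20 groups.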

How the results depend on the processing

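*Tgfb2* was called higher in all 26 alternatives (limma, edgeR or DESeq2 adjusted p from 5.12e-08 to 0.0256), and with litter as a replicate block its log2 change was 0.74 (limma adjusted p = 0.000215). The block raised the number of genes called lower from 477 to 728 and added calls of *Postn* (higher), *Fmod* and *Bambi* (lower), with no other call of a gene named here changed. Litter 3 alone gave 395 genes higher and 292 lower, and litters 4 to 6 gave 320 higher and 368 lower, in fits of 6 libraries. edgeR called 641 higher and 471 lower, and DESeq2 922 and 715. *Tgfbr3* was the 1 member called lower in litters 4 to 6. Of the other pathway genes, 1 was called higher without tdTomato 3a and 5b. When single libraries were left out, 2 to 6 were called lower: 6 without tdTomato 5b, and 2 without iCreb5 3b, iCreb5 6, tdTomato 3b, tdTomato 4a or tdTomato 6d.

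The other 9 members did not pass the test over all libraries, and each had the opposite sign under some settings. The cause was not tested. Litter 3 alone gave log2 changes of -0.41 for *Tgfb1*, 0.29 for *Tgfbr1*, 0.28 for *Tgfbr3*, 0.15 for *Ltbp2*, -0.031 for *Dcn* and -0.093 for *Strap*. Litters 4 to 6 gave -0.040 for *Tgfb3*, -0.26 for *Tgfbr2*, -0.26 for *Ltbp1*, -0.011 for *Ltbp3*, -0.29 for *Ltbp4*, -0.17 for *Itgb1*, -0.098 for *Col3a1* and 0.10 for *Col1a1*. The replicate block with litter 3 averaged gave -0.086 for *Tgfbr2*, -0.099 for *Ltbp1*, -0.057 for *Ltbp4*, -0.070 for *Itgb1* and 0.028 for *Col1a1*. Without iCreb5 5 and 6, the values were -0.062 for *Tgfb1*, 0.036 for *Tgfbr1*, 0.15 for *Ltbp2*, -0.078 for *Dcn*, -0.086 for *Strap* and 0.24 for *Col1a1*. Without tdTomato 3a and 5b, they were -0.091 for *Tgfb1*, -0.043 for *Tgfb3*, -0.080 for *Tgfbr2*, -0.12 for *Ltbp4* and -0.040 for *Itgb1*. On recovered reads, *Tgfb1* had -0.033 with limma-voom, and *Ltbp2* 0.050 with DESeq2 and 0.056 with edgeR. *Col1a1* had 0.0006 with TMM scaling and 0.065 with equal totals.

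Leaving out single libraries gave ranges of -0.035 to 0.16 for *Tgfb1*, -0.032 to 0.22 for *Tgfb3*, -0.074 to 0.34 for *Tgfbr2*, -0.081 to 0.21 for *Ltbp1*, -0.61 to 0.092 for *Ltbp2*, -0.078 to 0.11 for *Dcn*, -0.057 to 0.15 for *Itgb1*, -0.035 to 0.067 for *Strap* and -0.24 to 0.16 for *Col1a1*. Depth limits genes near the value of 3 reads, 1.48 to 8.38, and all 10 members stood above it in every library.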
